A study of Mus musculus with 20 samples.

Results

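The proteasome subunit genes of mouse were followed through 7 days of reprogramming of embryonic fibroblasts, with and without knockdown of Ddx10. The members were the rows of the deposited expression table whose gene name starts with Psma, Psmb, Psmc, Psmd, Psme, Psmf or Psmg and a number, leaving out the 3 immunoproteasome genes Psmb8, Psmb9 and Psmb10. This gave 46 of 15757 genes, and all 46 were tested, since the filter on low values removed 0 genes. They comprised 8 alpha and 7 beta subunits of the 20S core, 6 ATPases and 11 other subunits of the 19S cap, 6 regulators of the 20S core, 7 assembly chaperones, and Psmc3ip, a recombination factor that is named for binding an ATPase and is no proteasome subunit.

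RNA sequencing was done on passage 2 embryonic fibroblasts of OG2 mice, in which Oct4 regulatory DNA drives green fluorescent protein. All groups received retroviral Oct4, Sox2, Klf4 and Myc and were kept in iCD1 medium. The knockdown arm carried shRNA against Ddx10, an RNA helicase, and the control arm an shRNA against luciferase. Both arms were sampled at days 0, 1, 3, 5 and 7 in 2 replicates, giving 10 groups and 20 libraries. The series text speaks of biological replicates, and no label says whether they were separate cultures, so the p-values measure the spread between these samples only. The labels do not say how many shRNA sequences were used, and what followed from the loss of Ddx10 and what from the shRNAs otherwise cannot be told apart.

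The proteasome degrades proteins that carry ubiquitin chains. Its barrel-shaped 20S core has outer rings of alpha subunits, which form the gate, and inner rings of beta subunits, of which Psmb5, Psmb6 and Psmb7 are proteolytic. The 19S cap binds ubiquitin, removes it and threads the unfolded protein into the core with a ring of ATPases. PA28 (Psme1 with Psme2, or Psme3 in the nucleus) and PA200 (Psme4) open the core without ATP, and interferon induces Psme1, Psme2 and the immunoproteasome subunits.

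Levels are the authors' normalized read counts. The deposited columns summed to 20.1 to 21.3 M at day 0 and to 15.7 to 15.8 M at day 7, and depth, judged from the spacing of low values, was 12.0 to 23.7 M reads per library. These depths are rough, since only 40.3 to 55.7% of the lowest values in a library lay near multiples of the spacing. Ddx10 was lower in the knockdown at every day, with a log2 fold change of -0.69 at day 0, -1.58 at day 1, -1.31 at day 3, -0.79 at day 5 and -0.62 at day 7 (limma). Summed over 8 fibroblast markers, the level at day 0 was 311218 to 324029 in the knockdown and 382090 to 391375 in the control, and at day 7 it was 87412 to 102157 in the knockdown and 87889 to 89988 in the control. Over 6 epithelial markers the sum at day 7 was 11201 to 11965 in the knockdown and 19466 to 21110 in the control, and over 8 pluripotency markers it was 5044 to 5419 in the knockdown and 3814 to 4104 in the control. Over 8 macrophage markers the sum was 3301 to 3464 in the knockdown and 2207 to 3443 in the control at day 0, and 241 to 264 in the knockdown and 194 to 220 in the control at day 1. The control libraries of day 1 stood apart from each other: the median absolute log2 difference of the members was 0.24 there and 0.05 to 0.11 in the other groups. The part of these cell mixtures in the changes below was not tested, and in bulk RNA fewer cells of a type and less RNA per cell cannot be told apart.

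Per kilobase of transcript, the medians of the core and cap classes lay well above the levels of the chaperones and some regulators. At day 0 the beta subunits had a median of 2767 normalized read counts per kilobase in the knockdown and 3063 in the control, and the lowest and highest beta subunit differed 2.26-fold in the knockdown and 2.33-fold in the control. The alpha subunits other than Psma8 had medians of 2197 in the knockdown and 1925 in the control on this scale, the ATPases 1811 in the knockdown and 1959 in the control, and the other cap subunits 1774 in the knockdown and 1671 in the control. Among these alpha subunits the lowest and highest differed 2.84-fold in the knockdown and 3.03-fold in the control. The transcript lengths used enter this difference, with 2911 bases for Psma2, 2846 for Psma3 and 914 to 1239 for the others. The spread was 1.88-fold in the knockdown and 2.52-fold in the control among the ATPases. It was widest among the other cap subunits, at 3.71-fold in the knockdown and 4.73-fold in the control. The assembly chaperones stood at 356 in the knockdown and 371 in the control. Highest at day 0 were Psmb3 and Psmd8, with 3618 ± 192 and 3542 ± 140 per kilobase in the knockdown (SD, n = 2), and 4117 ± 59 and 4152 ± 237 in the control (SD, n = 2), a pair that did not differ beyond its spread. Psma8, the testis-specific alpha subunit, was the lowest member, with 4.1 per kilobase in the knockdown and 4.3 in the control at day 0.

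The promoters of the 5 members on which the later results turn are shown, from 250 bases before to 50 bases after the RefSeq start on GRCm38.p6, 5′ to 3′ on the strand of the gene, with motif matches in capitals. Psme1 and Psme2, a neighbouring pair 5912 bases apart on chromosome 14, rose together; Psme4 rose in both arms from day 1; Psmd8 and Psmb5 had the deepest falls by day 7 of the cap and of the core.
Psme1, chr14:55578244-55578543, plus strand: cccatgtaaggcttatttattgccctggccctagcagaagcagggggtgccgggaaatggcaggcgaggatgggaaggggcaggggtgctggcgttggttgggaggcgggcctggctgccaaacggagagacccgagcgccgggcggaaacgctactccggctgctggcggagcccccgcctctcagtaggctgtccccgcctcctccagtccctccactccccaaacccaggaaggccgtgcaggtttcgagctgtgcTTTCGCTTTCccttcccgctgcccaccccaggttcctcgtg
Psme2, chr14:55591052-55591351, minus strand: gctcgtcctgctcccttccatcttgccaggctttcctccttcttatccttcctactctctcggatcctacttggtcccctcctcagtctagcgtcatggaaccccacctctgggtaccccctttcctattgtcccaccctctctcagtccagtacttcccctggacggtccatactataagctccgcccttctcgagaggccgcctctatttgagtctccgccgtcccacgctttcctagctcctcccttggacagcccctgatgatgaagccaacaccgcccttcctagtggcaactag
Psme4, chr11:30771525-30771824, plus strand: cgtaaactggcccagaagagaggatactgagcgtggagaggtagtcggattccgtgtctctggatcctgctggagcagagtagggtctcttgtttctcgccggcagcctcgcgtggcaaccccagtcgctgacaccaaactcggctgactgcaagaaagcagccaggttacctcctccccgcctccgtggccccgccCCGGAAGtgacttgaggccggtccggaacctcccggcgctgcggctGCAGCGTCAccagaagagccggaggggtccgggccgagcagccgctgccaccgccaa
Psmd8, chr7:29180624-29180923, minus strand: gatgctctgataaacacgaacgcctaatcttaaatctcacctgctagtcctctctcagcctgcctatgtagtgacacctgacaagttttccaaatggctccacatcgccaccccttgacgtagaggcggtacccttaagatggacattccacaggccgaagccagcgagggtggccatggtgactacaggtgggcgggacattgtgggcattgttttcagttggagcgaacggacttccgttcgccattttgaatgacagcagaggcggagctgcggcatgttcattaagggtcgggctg
Psmb5, chr14:54617946-54618245, minus strand: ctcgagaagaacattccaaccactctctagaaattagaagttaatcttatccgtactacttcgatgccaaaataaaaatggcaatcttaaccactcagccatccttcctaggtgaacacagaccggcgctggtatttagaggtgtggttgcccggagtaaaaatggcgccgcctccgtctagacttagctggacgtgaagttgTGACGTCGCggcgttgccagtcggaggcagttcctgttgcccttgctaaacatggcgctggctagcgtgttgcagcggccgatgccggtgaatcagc
In Psme1 the capitals mark an interferon-stimulated response element (ISRE, on the other strand) at bases 260 to 269. In Psme4 they mark an ETS site (CCGGAAG) at bases 198 to 204 and, on the other strand, an element of the NRF1 and NRF2 type (TGACNNNGC) at bases 244 to 252. In Psmb5 they mark such an element at bases 204 to 212. The windows of Psme2 and Psmd8 held none of the motifs searched.

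The set of RefSeq promoters used here held 38 of the 46 members, and both strands were searched. It lacked Psma8, Psmb1, Psmb2, Psmb7, Psmc3, Psmd3, Psmd7 and Psmg2. The ETS site was in 36.8% of the 38 promoters, against 16.1% of the promoters of 11342 genes of the table and 8.86% of all 32851 promoters of the set. The ISRE was in 5 of the 38 (Psmb3, Psmd4, Psmd9, Psme1 and Psmg4), or 13.2%, against 2.89% for genes of the table. TGACNNNGC or TGAGNNNGC was in 42.1% against 30.9%, the NF-Y box CCAAT in 34.2% against 38.5%, the YY1 site ATGGCGG in 10.5% against 7.40%, and the interferon-gamma site GAS (TTCNNNGAA) in 5.26% against 6.89%. The median GC content was 58.2% in the members and 60.7% in genes of the table. A match is a description of these letters only.

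Most of the subunits of the core and the cap were lower after day 0 in both arms, while Psme1, Psme2, Psme4 and Psmg4 were higher. A member was called where the adjusted p of limma (Benjamini-Hochberg over 15757 genes) was under 0.05. In the knockdown, 27, 36, 38 and 36 of the 46 members fell by days 1, 3, 5 and 7, where 24.6, 28.1, 29.9 and 30.9% of all genes fell. In the control, 22, 35, 34 and 33 fell, where 26.7, 31.3, 32.5 and 33.7% of all genes did. Without replicate 1 or replicate 2 of the control at day 1, 22 or 28 members fell by that day. The members that rose numbered 2, 3, 4 and 4 in the knockdown (25.5, 31.9, 34.3 and 36.2% of all genes) and 4, 5, 5 and 4 in the control (28.3, 34.9, 37.7 and 38.6%). The median log2 change of the members was -0.35, -0.55, -0.48 and -0.49 in the knockdown and -0.28, -0.47, -0.43 and -0.51 in the control, where the median of all genes lay between 0.00 and 0.09. Among the 11024 genes with a mean of at least 100, the median of all genes lay between -0.08 and -0.02. There 30.5 to 38.1% of all genes fell in the knockdown and 32.8 to 40.9% in the control. The members' medians were then -0.35, -0.55, -0.50 and -0.50 in the knockdown and -0.30, -0.49, -0.44 and -0.56 in the control. Of the members that fell by day 7, 32 did so in both arms, and the 4 that rose by day 7 were the same in both.

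**Figure D1:**
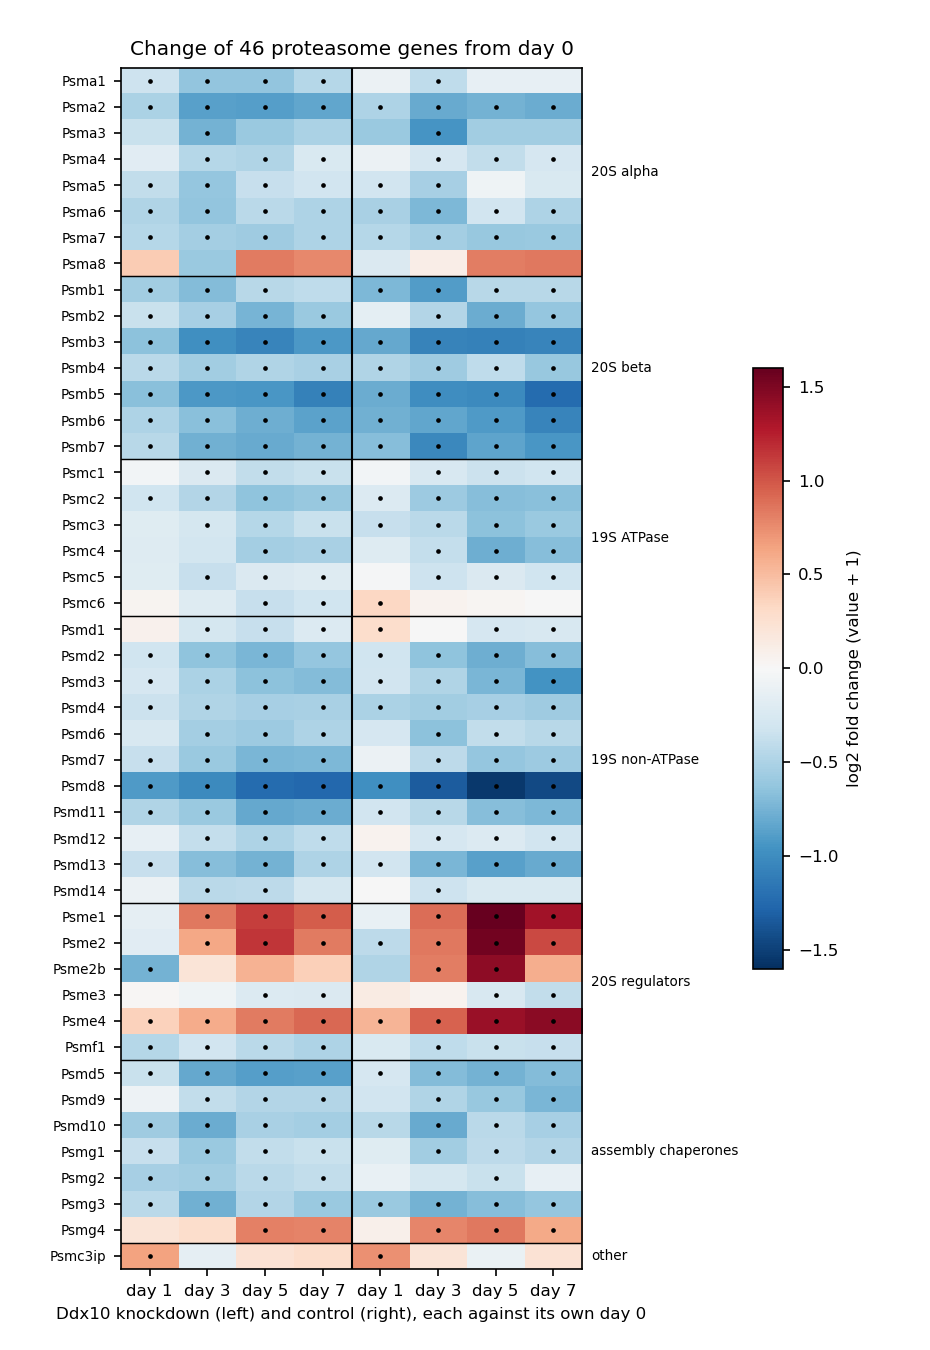
Log2 fold change (value + 1) of the 46 genes at days 1, 3, 5 and 7 against day 0 of the same arm, with the knockdown in the left 4 columns and the control in the right 4; a dot marks a limma adjusted p under 0.05. Blue fills most of the core, cap and chaperone genes in both arms, with Psmd8 at -1.25 (knockdown) and -1.45 (control) by day 7, and red marks Psme1, Psme2, Psme4 and Psmg4.

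The size of these falls depended on how the columns were scaled, because the deposited column sums were lower after day 0 in both arms. The 100 highest genes of a library held 23.5 to 25.8% of its column sum at day 0 and 14.8 to 15.4% at day 7. Their part in the difference between the scalings was not tested. With every column scaled to the same sum, an alternative chosen after the data were seen, the median of all genes moved up by 0.23 to 0.42, and 11, 20, 16 and 12 members fell in the knockdown (13.9, 16.5, 16.4 and 17.8% of all genes) and 9, 16, 17 and 14 in the control (16.2, 18.2, 19.4 and 20.4%). On that scale 6, 5, 6 and 6 members rose in the knockdown (37.5, 45.4, 49.7 and 51.3% of all genes) and 9, 9, 8 and 9 in the control (40, 49.4, 52 and 53.2%). The median change of the members was then -0.11, -0.25, -0.13 and -0.13 in the knockdown and -0.04, -0.10, -0.03 and -0.09 in the control, while the median of all genes was 0.23 to 0.51. The median of the members was thus below that of all genes on both scales. By day 7, the members that fell under the deposited, the equal-sum and the quantile scaling alike were Psma2, Psmb3, Psmb5, Psmb6, Psmb7, Psmc2, Psmd3, Psmd5, Psmd7, Psmd8 and Psmd11 in the knockdown. In the control the same 11 fell, with Psmb4 and Psmd13 in addition.

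Summed over the 46 genes, the level was 113109 ± 946 in the knockdown and 118057 ± 2013 in the control at day 0 (SD, n = 2 each). At day 3 it was 81679 ± 2774 in the knockdown and 85821 ± 1812 in the control, and at day 7 it was 83153 ± 1025 in the knockdown and 85561 ± 1038 in the control. As a share of the column sum, the members held 0.559% in the knockdown and 0.561% in the control at day 0, 0.495% in the knockdown and 0.527% in the control at day 3, and 0.529% in the knockdown and 0.546% in the control at day 7. The summed level therefore dropped far more than the share did. The summed level was lower in both knockdown libraries than in both control libraries at each of the 5 days, whereas the share overlapped between the arms at day 0.

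**Figure D2:**
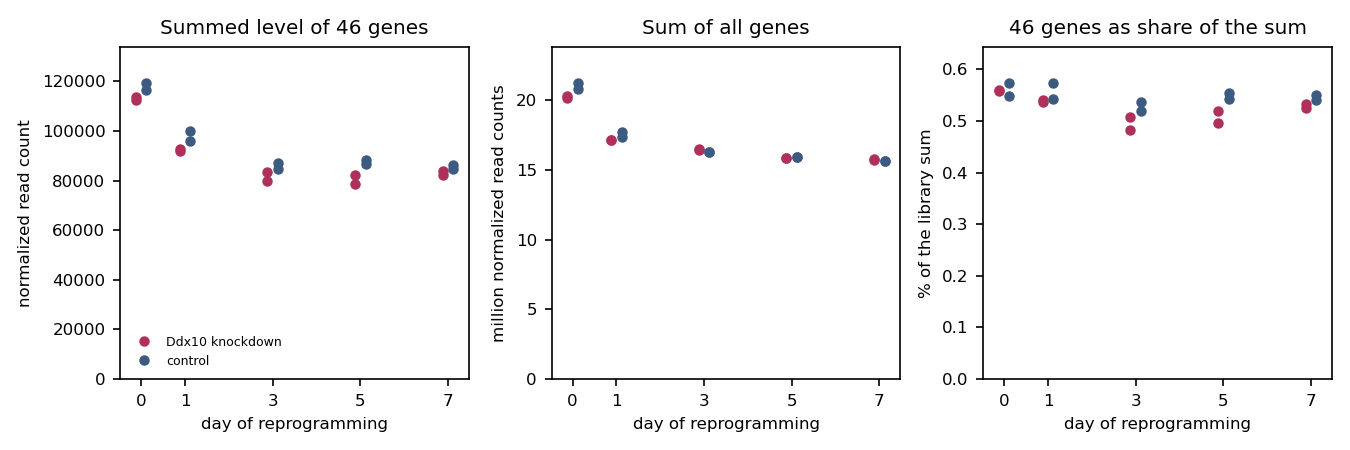
Each point is 1 library, knockdown left of control at each day: the summed normalized read count of the 46 genes, the sum of all genes in M normalized read counts, and the first as a percentage of the second. The first 2 panels drop after day 0, and the share stays between 0.482 and 0.574%.

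Of the 20S core, the beta subunits had lower median changes than the alpha subunits. The median change of the 7 beta subunits was -0.75 in the knockdown and -0.93 in the control by day 7, and -0.39 in the knockdown and -0.50 in the control with equal column sums. All 7 were called lower by day 3 in both arms, where 28.1% of all genes in the knockdown and 31.3% in the control were, but with equal column sums 5 in the knockdown (not Psmb1 and Psmb2) and 6 in the control (not Psmb2). Psmb5, which carries the chymotrypsin-like site, had 2010 and 1983 normalized read counts at day 0 of the knockdown and 894 and 1002 at day 7. In the control it had 2133 and 2189 at day 0 and 876 and 966 at day 7. The days did not overlap in either arm, and the log2 change was -1.08 (SE 0.101, limma adjusted p = 1.36e-07) in the knockdown and -1.23 (SE 0.101, limma adjusted p = 2.05e-08) in the control. Psmb6, the caspase-like subunit, changed by -0.85 in the knockdown and -1.05 in the control by day 7, and Psmb7, the trypsin-like subunit, by -0.75 in the knockdown and -0.93 in the control. Psmb3, a structural beta subunit, changed by -0.92 in the knockdown and -1.06 in the control.

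Over the 8 alpha subunits the median was -0.47 in the knockdown and -0.38 in the control by day 7, but -0.11 in the knockdown and 0.05 in the control with equal column sums. Psma2 fell in both arms on days 1, 3, 5 and 7, with -0.83 in the knockdown and -0.80 in the control by day 7, where the call held under each of the 3 scalings. Psma5 was lowest at day 3 and then higher again. Its libraries held 1985 and 1978 at day 0, 1293 and 1286 at day 3 and 1604 and 1598 at day 7 in the knockdown, and 2012 and 2143, 1570 and 1316, and 1836 and 1680 in the control. Psma1 and Psma5 were called lower by days 5 and 7 in the knockdown and not in the control, where Psma1 changed by -0.13 and Psma5 by -0.07 at day 5. Of these 4 calls in the knockdown, Psma1 at day 5 alone was left with equal column sums (-0.27), and in the control Psma1 was then called higher by days 5 and 7 (0.27 and 0.29) and Psma5 by day 5 (0.34). Under quantile scaling both calls of Psma1 were left and neither of Psma5. Knockdown minus control, that change was -0.50 for Psma1 and -0.31 for Psma5, and neither was called. Psma8 held 1.32 to 13.6 normalized read counts in the 20 libraries and was not called in any comparison.

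In the 19S cap, the 6 ATPases had median changes nearer 0 than the other subunits by day 7. Their median was -0.36 in the knockdown and -0.46 in the control by day 7, and 0.01 in the knockdown and -0.03 in the control with equal column sums. Psmc2, an ATPase of the ring, fell by day 7 in both arms and under each of the 3 scalings, with -0.60 in the knockdown and -0.67 in the control. Psmc6, another ATPase, rose in the control by day 1, with 3171 and 3290 normalized read counts at day 1 and 2389 and 2748 at day 0 (log2 change 0.33, limma adjusted p = 0.00517). In the knockdown Psmc6 had 2739 and 3294 at day 1 and 3032 and 2814 at day 0, a change of 0.04. The difference between the arms in this change, -0.29, was not called, and the control changes of Psmc6 by days 3, 5 and 7 were 0.05, 0.04 and -0.01. In the knockdown Psmc6 was called lower by days 5 and 7, and neither call was left with equal column sums. Its day 7 change there was -0.32 as deposited and 0.05 with equal column sums.

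Psmd8, a subunit of the lid, had the largest fall of all members at days 1, 3, 5 and 7 in both arms. In the knockdown its libraries held 5303 and 5608 at day 0, 2952 and 2849 at day 1, 2744 and 2639 at day 3, 2273 and 2362 at day 5, and 2173 and 2417 at day 7. In the control they held 6135 and 6652, 3511 and 2977, 2482 and 2576, 2202 and 2167, and 2384 and 2308 on those days. Most of the fall was thus in place at day 1, and no later library reached the day 0 level of its arm. The log2 change by day 7 was -1.25 in the knockdown (limma adjusted p = 1.07e-09) and -1.45 in the control (limma adjusted p = 1.34e-10), with an SE of 0.0788 each. The 11 subunits of the cap without ATPase activity had a median of -0.52 in the knockdown and -0.58 in the control by day 7, and of -0.16 in the knockdown and -0.15 in the control with equal column sums. Psmd11, a lid subunit, changed by -0.79 in the knockdown and -0.72 in the control, and Psmd3, another of the lid, by -0.69 in the knockdown and -0.96 in the control. Psmd2, a scaffold of the base, held 9904 and 10404 at day 0 and 6660 and 6594 at day 7 in the knockdown, and 11115 and 10211 at day 0 and 6640 and 6616 at day 7 in the control. Psmd1, the other scaffold, rose by 0.28 at day 1 in the control and was called lower by days 5 and 7, at -0.26 and -0.25. With equal column sums the day 5 value in the control was 0.14 and was not called. The day 7 value was then 0.17 and was called higher. In the knockdown Psmd1 was called lower by days 3, 5 and 7. Its changes there by days 3 and 7 were -0.28 and -0.22, but 0.02 and 0.14 with equal column sums, and not called.

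**Figure D3:**
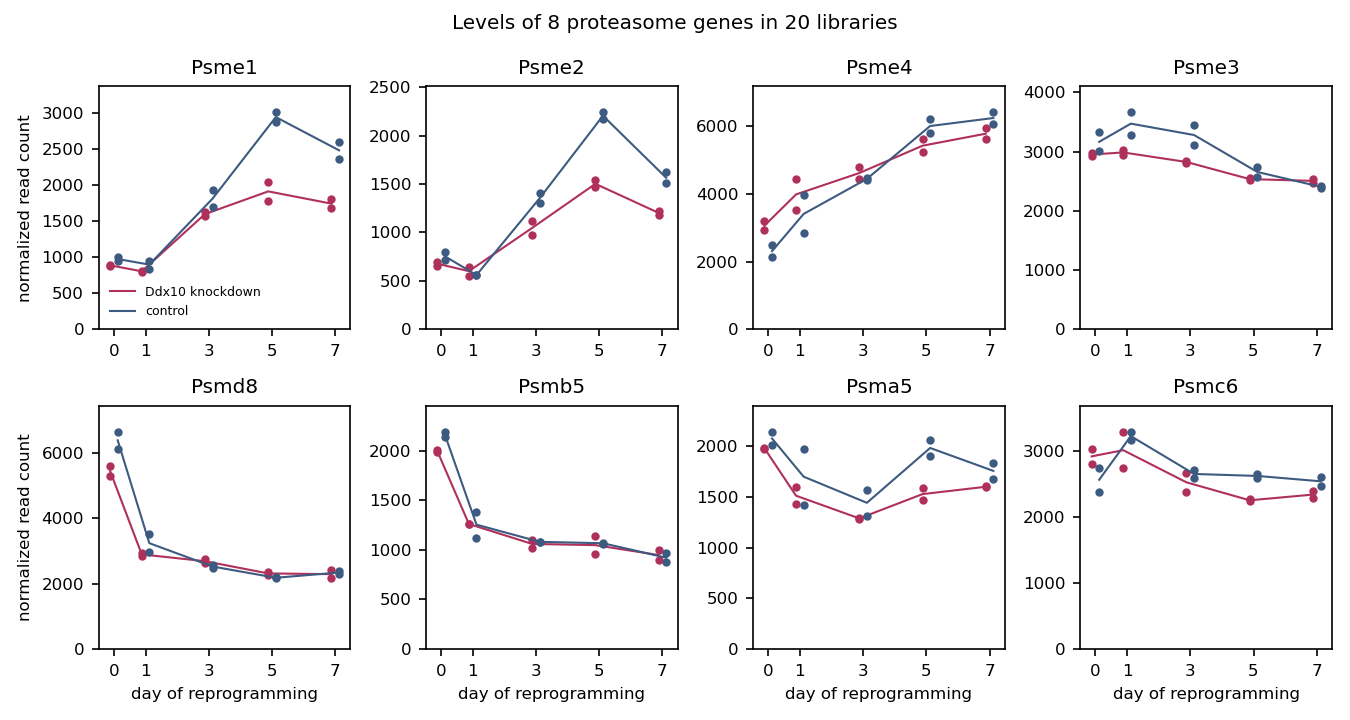
Normalized read counts of 8 proteasome genes by day; each point is 1 library and each line joins the means of 2, with the knockdown in red, left of the control in blue. Psme1 and Psme2 climb after day 1 and stay lower in the knockdown at days 5 and 7, Psme4 climbs in both arms, and Psmd8 and Psmb5 drop by day 1.

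Of the 7 assembly chaperones, 6 were called lower by day 5 in both arms and Psmg4 higher, where 29.9% of all genes in the knockdown and 32.5% in the control were lower, but with equal column sums Psmd5 alone was called lower in each arm. The median was -0.46 in the knockdown and -0.54 in the control by day 7, and -0.10 in the knockdown and -0.11 in the control with equal column sums. Psmd5, a chaperone of the cap's base, changed by -0.87 in the knockdown and -0.69 in the control by day 7, and Psmd10, known as gankyrin, by -0.55 in the knockdown and -0.54 in the control. With equal column sums the day 7 calls of Psmd5 held, and Psmd10 was not called (-0.18 in the knockdown and -0.11 in the control). Psmg4, which helps to build the alpha ring, had 117 and 157 at day 0 and 232 and 238 at day 7 in the knockdown, and 148 and 120 at day 0 and 199 and 207 at day 7 in the control. Days 0 and 7 of Psmg4 did not overlap in either arm (log2 change 0.79 in the knockdown and 0.60 in the control, SE 0.175 each), though in the control the day 7 call was lost under quantile scaling. Psmc3ip rose by day 1 in both arms (0.64 in the knockdown, limma adjusted p = 0.0279, and 0.73 in the control, limma adjusted p = 0.0125, SE 0.226 each), was not called there under quantile scaling, and was not called on later days.

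The regulators of the 20S core did not move as 1 group. Psme1, the PA28 alpha subunit, rose by day 3 in both arms. Its libraries held 888 and 882 at day 0, 794 and 811 at day 1, 1628 and 1562 at day 3, 1777 and 2041 at day 5, and 1799 and 1680 at day 7 in the knockdown. In the control they held 943 and 1001, 951 and 839, 1689 and 1929, 3008 and 2868, and 2594 and 2361. All libraries from day 3 on lay above those of days 0 and 1 in both arms, and both knockdown libraries lay below both control libraries on each of the 5 days. The log2 change against day 0 was 0.85, 1.10 and 0.97 at days 3, 5 and 7 in the knockdown and 0.89, 1.60 and 1.35 in the control (SE 0.0895 each).

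Psme2, the PA28 beta subunit, also rose by day 3 in both arms, after a lower value of the control at day 1 (-0.42, called as deposited and under quantile scaling, and -0.16 and not called with equal column sums). It had 698 and 657 at day 0, 1466 and 1539 at day 5 and 1185 and 1220 at day 7 in the knockdown, and 712 and 795, 2168 and 2244, and 1620 and 1509 in the control. Its highest level was at day 5 in both arms, and the knockdown libraries lay below the control libraries at days 0, 3, 5 and 7. Psme2b, a gene on chromosome 11 that shares 76.5% of its 31-base words with Psme2, held 20.9 to 111 normalized read counts in the 20 libraries. It was called higher in the control by days 3 and 5 (0.82 and 1.43), the first of which was not called under quantile scaling (0.34), and its counts may include reads of Psme2. Psme3, the PA28 gamma subunit, had a log2 change of -0.24 in the knockdown and -0.39 in the control by day 7, both called lower, but with equal column sums these were 0.13 in the knockdown and 0.03 in the control and were not called.

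Psme4 (PA200) rose on each of days 1, 3, 5 and 7 in both arms, and under each of the 3 scalings by day 7. In the knockdown it had 3191 and 2927 at day 0 and 5938 and 5612 at day 7, and in the control 2126 and 2490 at day 0 and 6414 and 6063 at day 7. The log2 change by day 7 was 0.92 in the knockdown (limma adjusted p = 2.05e-05) and 1.44 in the control (limma adjusted p = 1.17e-07), with an SE of 0.133 each. At day 0 both knockdown libraries of Psme4 lay above both control libraries, with a log2 difference of 0.41 that was not called (limma adjusted p = 0.1), and at days 5 and 7 both lay below. Psmf1 (PI31), known as an inhibitor of the 20S core in the test tube, was called lower by day 7 in both arms, at -0.50 in the knockdown and -0.37 in the control, but with equal column sums neither was called, at -0.14 in the knockdown and 0.05 in the control.

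Between the arms on single days, Psme1 and Psme2 were the members with the largest called differences, and the core and cap subunits differed little. The members called lower in the knockdown numbered 0, 0, 1, 3 and 2 at days 0, 1, 3, 5 and 7, where 0.812, 0.121, 2.25, 2.9 and 1.52% of all genes were called lower. No member was called higher at any of these days by limma, where 2.49, 0.0254, 2.51, 5.83 and 4.65% of all genes were. At an unadjusted p under 0.05 the members in either direction numbered 7, 6, 7, 10 and 2 of 46. Of all 15757 genes 3267, 2066, 3047, 3498 and 2894 had such a p. The members' share was thus not above that of all genes on any day. As shares of the 46 members, those called lower were 2.17% at day 3, 6.52% at day 5 and 4.35% at day 7. The members' median difference was -0.07, -0.07, -0.07, -0.09 and -0.02, against -0.02 to 0.02 for all genes.

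At day 3 the member called was Psme2, with 1122 and 971 in the knockdown and 1304 and 1405 in the control (log2 difference -0.37, SE 0.0923, limma adjusted p = 0.0311). At day 5 Psme1 was lower in the knockdown (log2 difference -0.62, SE 0.0895, limma adjusted p = 0.000494), and Psme2 differed by -0.55 (SE 0.0923, limma adjusted p = 0.0014). Psmb4, a structural beta subunit, had 2316 and 2398 in the knockdown and 2796 and 2761 in the control at day 5 (-0.24, SE 0.0703, limma adjusted p = 0.0476). At day 7 Psme1 differed by -0.51 (limma adjusted p = 0.00278) and Psme2 by -0.38 (limma adjusted p = 0.0221). The day 5 calls of Psme1 and Psme2 held under every alternative tried. The other calls were lost under some alternatives. Psmb4 at day 5 was not called with equal medians (limma adjusted p = 0.0582), with equal column sums (0.0542) or in a fit of the compared groups alone, and Psme2 at day 3 was not called in that last fit (0.0547). Leaving out libraries ended these calls: Psme2 at days 3 and 7 and Psmb4 at day 5 without any 1 of the 4 libraries compared, and Psme1 at day 7 when control replicate 1 was dropped (limma adjusted p = 0.0526), or replicate 2 of the knockdown (0.0529).

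Averaged over the 5 days, 12 members (26.1%) were lower in the knockdown and 0 higher, where 7.46% of all genes were lower and 10.3% higher. The differences were small: Psme1 at -0.32 (SE 0.04), Psme2 at -0.27 (SE 0.0413) and Psme3 at -0.11 among the regulators, and Psma2, Psma4, Psma5, Psma7, Psmb2, Psmb4, Psmd3, Psmd7 and Psmd13 between -0.18 and -0.09. At an unadjusted p under 0.05 there were 14 of the 46 members and 4805 of all 15757 genes, about the same share. With a library left out the count was 4 (without knockdown replicate 2 of day 3) to 14 (13 lower and 1 higher, without control replicate 2 of day 1), with 8 lower and 1 higher without control replicate 2 of day 0, and it was 8 lower with equal column sums, where 6.29% of all genes were lower. Psme1, Psme2, Psmb4 and Psmd7 were lower under each of these. The count also moved by over 1.5 times without knockdown replicate 1 of day 0 (7 members), 2 of day 1 (6), 1 of day 3 (7), 1 of day 5 (5) or 2 of day 7 (7), and without control replicate 1 of day 5 (5) or of day 7 (6).

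Counting only whether both libraries of an arm lay apart from both of the other, 20 members were lower and 2 higher in the knockdown at day 5, where 29.4% of all genes were lower and 27.1% higher. At day 0 there were 21 lower and 7 higher (27.5 and 22.8% of all genes), at day 1 15 and 2 (18.1 and 16.6%), at day 3 17 and 3 (24.7 and 28.7%), and at day 7 15 and 9 (27.6 and 28.6%). On each day more members lay below than above, by small amounts.

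**Figure D4:**
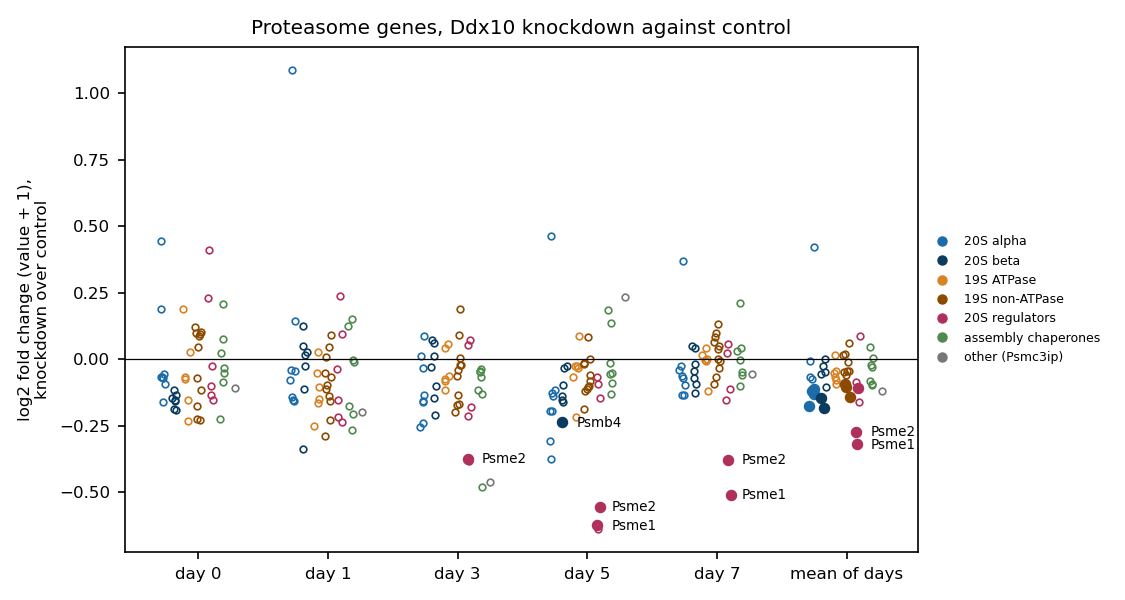
Log2 fold change (value + 1) of each of the 46 genes, knockdown over control, for single days and their mean; colours give the role and filled points have a limma adjusted p under 0.05. Most points lie between -0.25 and 0.25, and Psme1 and Psme2 are the lowest filled points at day 5 (-0.62 and -0.55). The open points above 0.3 include Psma8, at low counts.

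The arms were also compared in their change from day 0. The difference in the change (knockdown minus control) was called for 0 members by days 1, 3 and 7, where 0.273, 3.73 and 6.38% of all genes were called. By day 5 it was called for Psme1 alone among the members (7.77% of all genes), at -0.49 (SE 0.127, limma adjusted p = 0.0276). At an unadjusted p under 0.05 there were 3, 4, 7 and 5 members by days 1, 3, 5 and 7. Of all 15757 genes 2023, 3125, 3659 and 3501 had such a p, larger shares than among the members. The day 5 call of Psme1 was lost without knockdown replicate 1 or 2 or control replicate 1 of day 0, and without knockdown replicate 1 or control replicate 1 of day 5 (limma adjusted p = 0.0557 to 0.119). For Psme4 the difference was -0.56 at day 5 and -0.52 at day 7, and for Psme2 -0.40 and -0.23, and none of these was called (limma adjusted p = 0.0861, 0.116, 0.0733 and 0.332).

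The 3 inducible subunits that replace Psmb5, Psmb6 and Psmb7 in the immunoproteasome were not members and are given beside their constitutive partners. Per kilobase of transcript, Psmb8 made up 35.2 and 38.4% of the sum of Psmb8 and Psmb5 at day 5 in the knockdown, and 62.6 and 58.2% in the control. At day 0 these shares were 0.437 and 1.05% in the knockdown and 0.821 and 0.693% in the control. Psmb9 made up 10.4 and 14.3% of the sum of Psmb9 and Psmb6 at day 5 in the knockdown, and 30.1 and 25.5% in the control. Psmb10 made up 27.7 and 28.1% of the sum of Psmb10 and Psmb7 in the knockdown, and 35.2 and 34.3% in the control. The arms did not overlap in any of the 3 shares at days 3, 5 and 7. Psmb5, Psmb6 and Psmb7 themselves differed between the arms by -0.03, -0.03 and -0.15 at day 5, while Psmb8, Psmb9 and Psmb10 differed by -1.43, -1.49 and -0.62 (limma adjusted p = 0.00649, 0.0143 and 0.0147).

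**Figure D5:**
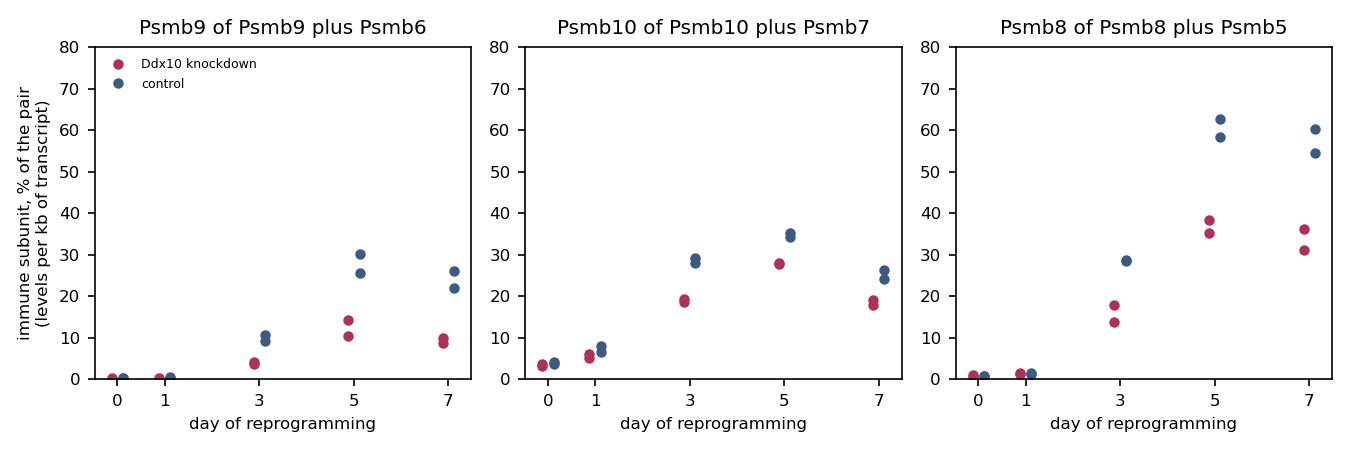
Share of the inducible subunit in the summed level of each inducible and constitutive pair, in percent, from levels per kilobase of transcript; each point is 1 library, knockdown left of control at each day. All shares are low at days 0 and 1, and the knockdown points lie below the control points from day 3 on.

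Proteasome genes with other names were followed on the course as well. Of 11 such genes, 7 fell and 2 rose by day 7 in each arm, but 4 fell and 4 rose in each arm with equal column sums. Of all genes 30.9% in the knockdown and 33.7% in the control fell by day 7, and 36.2 and 38.6% rose. With equal column sums 17.8 and 20.4% of all genes fell and 51.3 and 53.2% rose. Among the 11 genes Pomp, the maturation chaperone of the 20S core, changed by -0.68 in the knockdown and -0.78 in the control, Shfm1, a small lid subunit, by -1.02 in the knockdown and -1.03 in the control, and Adrm1, a ubiquitin receptor, by -0.66 in the knockdown and -0.90 in the control. All 8 genes of the cytosolic chaperonin, a folding complex given for comparison, were called lower by day 5 in both arms (29.9% of all genes in the knockdown and 32.5% in the control), with medians of -0.65 in the knockdown and -0.43 in the control. Under quantile scaling 5 in the knockdown and 3 in the control were called lower (33.7 and 36.3% of all genes). With equal column sums 6 in the knockdown and 3 in the control were (16.4 and 19.4% of all genes). The median of the chaperonin genes by day 5 was then -0.22 in the knockdown and 0.01 in the control under quantile scaling, and -0.30 in the knockdown and -0.02 in the control with equal column sums. As the mean of days, 2 of the 8 (Cct2 and Tcp1) were lower in the knockdown and 0 higher, under quantile scaling and with equal column sums alike. Of all genes 8.17 and 6.29% were lower there, and the medians of the 8 were -0.08 and -0.07. Between the arms, Zfand2a, an arsenite-inducible protein that binds the 19S cap, was higher in the knockdown at days 3, 5 and 7 under each of the 3 scalings. It had 928 and 936 at day 5 in the knockdown and 671 and 617 in the control, and differed by 0.56 at day 3, 0.53 at day 5 and 0.35 at day 7 (limma adjusted p = 0.00321, 0.00118 and 0.0254). AI314180, the adaptor known as Ecpas, was higher in the knockdown at day 0 (0.46, limma adjusted p = 0.0105).

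Among 10 genes of the NRF1 pathway, which raises proteasome gene transcription when proteasome activity is short, 1 was higher in the knockdown at day 3 and 1 at day 5, and 1 was lower at day 7, where 2.51% and 5.83% of all genes were higher and 1.52% lower. Nfe2l1, which encodes NRF1, had 6459 and 6820 at day 3 in the knockdown and 4974 and 5447 in the control (0.35, limma adjusted p = 0.0244). Maff, a small Maf partner, differed by 0.70 at day 5, and Nfe2l2 by -0.25 at day 7. Of 5 ubiquitin and activating enzyme genes, Uba6 was higher at day 0 (0.53, limma adjusted p = 0.0147). Of 11 shuttle factors and p97 cofactors, Rad23b was lower as the mean of days (-0.10, limma adjusted p = 0.0281), a call that was not there with equal column sums.

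The 46 genes lie on 16 chromosomes, with 10 on chromosome 11, and Psme1 and Psme2 are their only pair within 100 kilobases. A divergent neighbour within 1000 bases of the start was annotated for 8 of the 46 members (17.4%), among them Psme2 with Rnf31, a subunit of the linear ubiquitin ligase, against 9.02% of 14576 protein-coding genes of the table.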

How the data were processed

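The deposited table held 15757 mouse genes in 20 columns of normalized read counts, a signal that is not whole numbers; the authors deposited it, and the normalization step is not given in the sources used here. The submitters' processing notes list the mm10 build and, in no stated role or order, DESeq2 1.22.0, RSEM 1.2.22, STAR 2.5.2a and Trim Galore 0.4.4. Column names were matched to the sample titles. The steps between low values gave whole reads too seldom for a count test, so log2(value + 1) of all genes was tested with limma 3.58.1 (trended, robust, two-sided) in R 4.3.3, in 1 fit of 10 group means with 10 residual degrees of freedom and a median of 5.35 prior ones. Genes needed a value of 1 in 2 libraries, which removed 0. The threshold was a Benjamini-Hochberg adjusted p of 0.05. Tables and plots used Python 3.11.15, pandas 2.3.3, numpy 2.4.6 and matplotlib 3.10.9. Levels per kilobase used the longest principal protein-coding transcript in GENCODE vM21.

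The members and lists were chosen with earlier results of these data known. Named were, per comparison and role, up to 3 called members with the largest change, every called member where a knockdown comparison called 10 or fewer, and Psme1, Psme2, Psme3, Psme4, Psmf1 and Psmc3ip; of related lists, up to 3 called genes with the smallest p. Psma1, Psma5, Psma8, Psmc6, Psmd1, Psmd2 and Psme2b were also described, after their values were seen. The test was run on simulated data with known changes. The alternatives were quantile scaling, equal medians, pseudocounts of 0.1 and 5, no filter, a mean of at least 100, a replicate block, library weights, the compared groups alone, and leaving out each library. Equal column sums were added after the data were seen. Replicate numbers were not used to pair the samples in the main fit, since no label says what they mark. Correlations of same-numbered deviations lay between -0.07 and 0.08, which cannot show whether libraries shared a culture or batch.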

Additional observations from a re-analysis of the deposited data

Results flagged for a closer look

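The change of Psme1, the PA28 alpha subunit, between day 0 and day 5 differed between the arms, with a knockdown minus control difference of -0.49 on the log2 scale (SE 0.127, limma adjusted p = 0.0276). Psme1 rose by 1.10 in the knockdown and by 1.60 in the control. Over the alternatives its limma adjusted p lay between 0.0173 and 0.119. It passed 0.05 without control replicate 2 of day 0, control replicate 2 of day 5 or knockdown replicate 2 of day 5, and missed it without any of the other 5 libraries compared.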

How the results depend on the processing

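Counts are of proteasome subunit genes called, with the reported count in parentheses. For the difference in the change by day 5 (1), 3 were called under quantile scaling, with a mean of at least 100, with equal column sums and with the compared groups alone, and 4 with library weights. Of all genes 7.81, 12.3, 8.03 and 9.48% were called under quantile scaling, a mean of at least 100, equal column sums and library weights, against 7.77% in the main fit. Library weights gave 3 at day 3 (1) and 5 at day 5 (3) for knockdown against control, and 1 for the difference by day 7 (0). With these weights 8.82, 13.9 and 9.16% of all genes were called, against 4.77, 8.73 and 6.38% without them. The compared groups alone gave 0 at day 3 (1) for knockdown against control, 13 by day 1 in the control (26), and 1 for the difference by day 7 (0). Equal column sums, chosen after seeing the data, gave 17, 25, 22 and 18 called by days 1, 3, 5 and 7 in the knockdown (29, 39, 42 and 40) and 25, 25 and 23 by days 3, 5 and 7 in the control (40, 39 and 37). Over all members, 37 of 292 called changes against day 0 turned sign with equal column sums, those of Psmd1 by days 5 and 7 in the control included. Of the 37, 1 was then called in the other direction, that of Psmd1 by day 7 in the control (0.173). Of the genes chosen by the naming rule, 11 changes that had been called or became called turned: Psmc3 to 0.0144 and 0.00525 by days 3 and 7, and Psme3 to 0.231, 0.134 and 0.127 by days 3, 5 and 7, in the knockdown; and Psmc2 to 0.0417 by day 1, Psma4 to 0.00604 by day 5, Psmf1 to 0.0425 and 0.0537 by days 5 and 7, and Psme3 to 0.151 and 0.0319 by days 5 and 7, in the control. These reversals follow from the scaling itself, which moves the median of all genes up; for the other settings the cause was not tested.

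With 1 library left out, the count for knockdown against control was 0 to 0 at day 0, 0 to 4 at day 1, 0 to 0 at day 3, 2 to 2 at day 5, 0 to 1 at day 7 and 4 to 14 for the mean of days. It was 21 to 24, 34 to 38, 35 to 40 and 34 to 37 by days 1, 3, 5 and 7 in the knockdown, 23 to 32, 35 to 39, 33 to 36 and 34 to 37 in the control, and 0 to 2, 0 to 0, 0 to 2 and 0 to 0 for the differences. A replicate block gave 10 members for the mean of days (12), and 0, 0, 1, 3 and 2 on the 5 single days, as without the block. With 2 libraries a group and a median SE of 0.0953 for a member's change, small differences could not be detected.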
